A study of Mus musculus with 9 samples.

Results

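Of the 30534 circular RNAs (circRNAs) on a mouse liver array, 2119 (6.94%) had a probe that was dimmer than its own partner probe on every one of the 9 arrays. Each circRNA is read by 1 probe, here called the circle probe, and by a partner that carries the same name with the ending _neg. The target of the partner probe is not stated in the labels or files used here. The 2119 circRNAs were chosen by their measured values: the processed intensity of the circle probe was below that of the partner on all 9 arrays, both spots were well above background on all 9, and no spot flagged as an outlier was counted. The order of the 2 probes in these circRNAs is therefore a description and is not tested. The sequences of the 2 probes of a pair were not compared, so their ratio is read as one of signals and not of RNA amounts.

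Livers came from 20-week-old male mice of the inbred strain C57BL/6J. Control mice ate chow from 3 weeks of age for 17 weeks, with no gavage listed. The high fat diet group was fed 45% of its energy as fat for the same 17 weeks, with saline by gavage in the last 5. The metformin group had the same diet and, in the last 5 weeks, a daily gavage of metformin (a biguanide used against high blood glucose) at 3 mg per kg. There were 3 arrays per group, each with RNA pooled from 4 mouse livers, so the spread between arrays is that between pools. In all groups 5 µg of RNA was digested with RNase R for 30 minutes before labelling. The high fat diet and control groups thus differed in gavage as well as in diet, and the effects of these cannot be told apart.

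A circRNA forms when the end of a downstream exon is spliced back to the start of an upstream exon, which leaves a closed ring with no free ends. RNase R digests RNA from a free end, so linear transcripts of the host gene are degraded and circles are largely spared. The one stretch of a circle that its linear host transcript lacks is the back-splice junction, and array probes for circRNAs are commonly placed across it. Sequences of the probes and a genome of build mm9, which the positions in the probe names follow, were not used here, and the files used here do not pair the probes with host genes. The circRNAs are therefore given by name or by mm9 position, and the labelled tissue could not be set against marker genes.

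Levels below are log2 of the processed intensity above the array's 75th percentile over all probes other than controls. The arrays had 69.4% to 84.3% of probes well above background, lowest on metformin replicate 3 and next on high fat diet replicate 2 (71.8%), and their number limits the precision. By slide barcode, metformin replicate 3 was the one array on a second slide. The controls and high fat diet replicate 1 shared 1 column of the first slide, and high fat diet replicates 2 and 3 and metformin replicates 1 and 2 shared the other.

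Both probes could be compared on all 9 arrays for 15884 circRNAs, and the 2119 made up 13.3% of these. The circle probe was the brighter one on all 9 arrays for 10339 (65.1%), and the order differed between arrays for 3426 (21.6%). By the number of arrays on which the circle was dimmer, from 1 to 8, the counts were 828, 486, 375, 318, 340, 296, 335 and 448. The distribution had its peaks at both ends, and most pairs kept 1 order on every array. On a single array, 21.2% (high fat diet replicate 2) to 24.6% (metformin replicate 3) of the 15884 circles were dimmer than their partner.

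**Figure D1:**
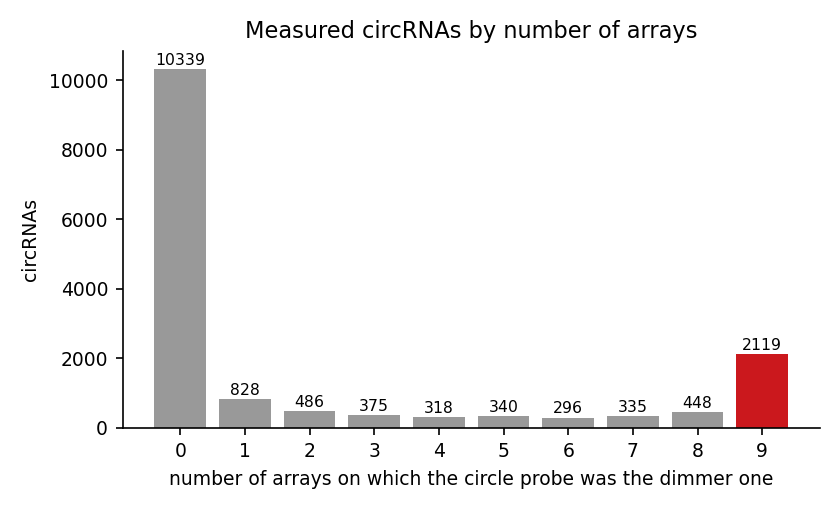
Number of measured circRNAs (y axis) by the number of arrays on which the circle probe was dimmer than its partner (x axis, 0 to 9). The red bar holds the 2119 circRNAs dimmer on all 9 arrays, against 448 dimmer on 8 and 10339 dimmer on none.

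The margins of the 2119 were mostly small. The mean log2 ratio of circle to partner over the 9 arrays had a median of -0.71, with quartiles of -1.22 and -0.40 and a range of -7.11 to -0.06. The partner was at least 2-fold brighter on average for 714 (33.7%), at least 4-fold for 194 (9.16%), at least 8-fold for 56 (2.64%) and at least 32-fold for 5. Among the 10339 circRNAs with the opposite order, the circle was at least 2-fold brighter for 54.8%. The spread of the ratio over the 9 arrays was alike in both sets, with a median SD of 0.17 in each. Between pairs of arrays, the ratios of the 2119 correlated with r of 0.914 to 0.961, against 0.946 to 0.978 for the other 13765 measured circRNAs. This is a description across circRNAs, which share the arrays.

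The circle probes of the 2119 had levels from -3.71 to 6.37 with a median of -1.11, and their partners had levels from -3.20 to 7.67 with a median of -0.07. The median over all 15884 was -0.12 for circle probes and -1.03 for partners. Across the 2119 the mean levels of circle and partner correlated with r = 0.895, against 0.809 across the other 13765. The rule chose the 2119 by the order of these same probes, so nothing about the 2119 is read from that difference. No spot of the 2119 pairs was saturated on any array.

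**Figure D2:**
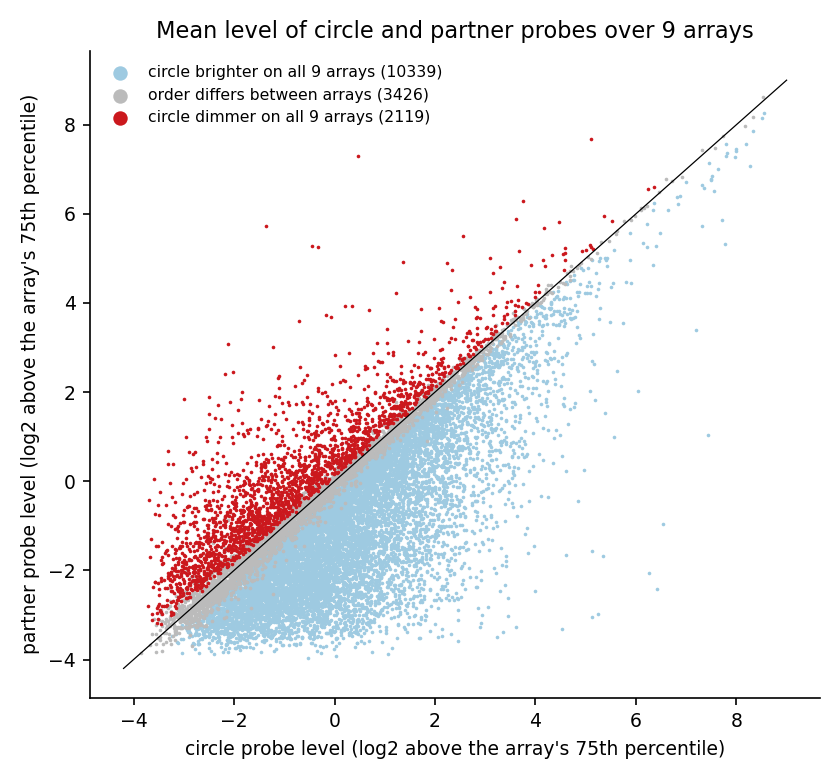
Mean level of the circle probe (x axis) and of its partner (y axis) over 9 arrays, in log2 above the array's 75th percentile, 1 point per circRNA; the line marks equal levels. The 2119 circRNAs in red lie above the line, most of them close to it, and a few partners stand more than 5 log2 units above a circle.

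The widest margin was that of mmu_circ_0006860. Its circle probe read -1.36, -1.39 and -1.26 in controls, -1.29, -1.58 and -1.45 on the diet, and -1.27, -1.36 and -1.39 with metformin. Its partner read 5.84, 5.89 and 5.92, then 5.81, 5.28 and 5.76, then 5.75, 5.55 and 5.84 in the same order. The partner was 138-fold brighter (log2 ratio -7.11 ± 0.15, SD, n = 9 arrays), and no partner value came near a circle value. High fat diet replicate 2 had the lowest reading of both probes.

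In mmu_circ_0014782 the circle lay between 0.14 and 0.65 and the partner between 6.85 and 7.57. The partner was 112-fold brighter (log2 ratio -6.81 ± 0.27, SD, n = 9 arrays). Its circle probe was thus above the 75th percentile of every array, so a wide margin was not limited to dim circles. The remaining ones of the 8 widest margins had partners 53.3-fold brighter (chr11:60361190-60367896), 48.3-fold (mmu_circ_0000995), 36.8-fold (chr3:29547139-29556189), 28.5-fold (chr17:94033275-94047616), 24.2-fold (chr10:62300924-62303126) and 22.3-fold (mmu_circ_0010012). Their SD over the 9 arrays was 0.26 to 0.48 log2 units, and all 3 groups showed the same wide gap.

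**Figure D3:**
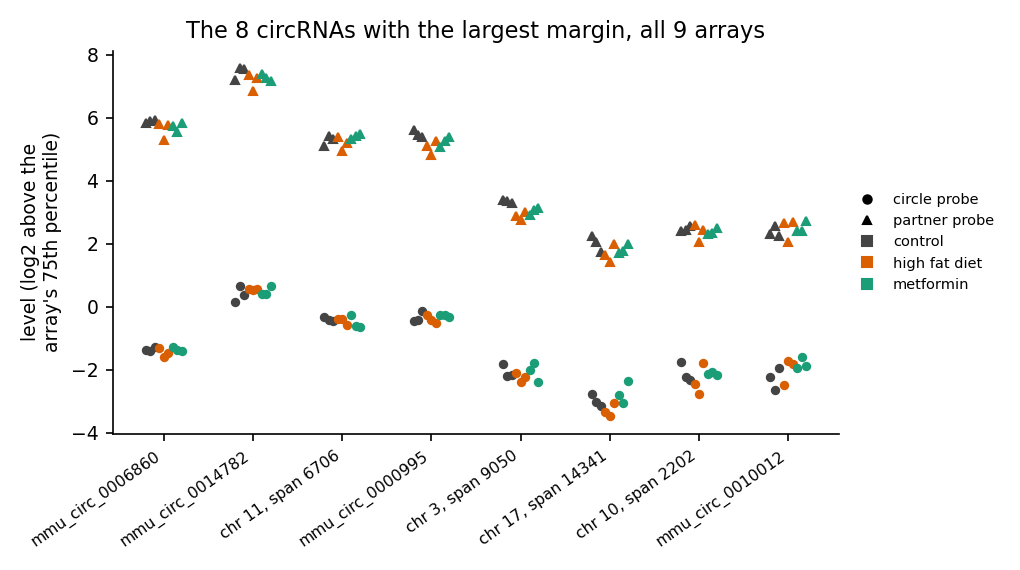
Level (y axis, log2 above the array's 75th percentile) of the circle probe (dots) and partner probe (triangles) on each of the 9 arrays for the 8 circRNAs with the widest margins; colours give the group, and spans are in bases. Every partner reading is above every circle reading of the same circRNA, and the groups lie side by side.

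The circle probes with the highest signal among the 2119 had small margins. The highest was mmu_circ_0009689, with circle levels of 6.35, 6.48 and 6.40 in controls, 6.18, 6.12 and 6.32 on the diet and 6.35, 6.3 and 6.8 with metformin. Its partner stood only 1.18-fold above the circle (log2 ratio -0.24 ± 0.09, SD, n = 9 arrays). The next ones were mmu_circ_0013640 (mean circle level 6.23, ratio -0.34), mmu_circ_0002560 (5.52, -0.32), mmu_circ_0011211 (5.36, -0.60), chr11:60367216-60367896 (5.15, -0.07) and chr19:3612198-3622726 (5.12, -0.15). For these circles the order was decided by 1.05-fold to 1.52-fold.

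On chromosome 11 a circle with a wide margin shared an end with one that had nearly equal probes. The circles chr11:60361190-60367896, spanning 6706 bases, and chr11:60367216-60367896, spanning 680, share their higher-numbered end. The partner of the longer circle read 4.93 to 5.49 over the 9 arrays and that of the shorter one 4.87 to 5.54. The circle probe of the longer one read -0.63 to -0.27, whereas that of the shorter one read 4.81 to 5.47. Their ratios were -5.74 and -0.07.

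At the edge of the selection, chr17:5990136-5996961, chr1:30865568-30877082 and Fan_16_148_2525 were included although on 1 array the circle and partner were equal to within 0.001 log2 units. The circles chrX:80081034-80086474, mmu-circRNA106 and mmu-circRNA322 were left out because on 1 array the circle was above the partner by 0.0015, 0.0009 and 0.0004 log2 units. Their mean ratios were -0.48, -0.17 and -0.29 inside the limit and -0.45, -0.18 and -0.15 outside it, so the limit divides circles with like mean ratios.

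The 2119 came from every kind of name on the array. They were 1079 of 7597 measured circRNAs named mmu_circ (14.2%), 921 of 6955 named by position (13.2%), 98 of 1061 named Fan (9.24%) and 21 of 271 named mmu-circRNA (7.75%). By genomic span, the share was 6.33% for the 158 measured circles of 100 to 200 bases, 18.8% for the 266 of 600 to 1000, and 11.8% to 14.2% in the other size classes. The median span was 7874 bases for the 921 named by position and 7477 for all 6955 measured. By chromosome the share ran from 9.51% (chromosome 13, 25 of 263) to 17.6% (chromosome 15, 46 of 262). These shares are descriptions with no test.

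Circles that overlap in the genome were joined into loci, and the 921 fell into 837 of them. Of these loci, 762 held 1 of the 921, 69 held 2, and 6 held 3 or more. In 530 loci at least 3 circles were measured; 333 had no dimmer circle, 197 had at least 1, and in none were all measured circles dimmer. Of the 1280 loci with at least 2 measured circles, 366 held a dimmer circle and 22 held dimmer circles alone. Most of these 1280 loci thus had no dimmer circle, and most of the 366 also held a measured circle that was not. A further 471 dimmer circles were the only measured circle of their locus.

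Circles can share 1 splice site. Of 819 pairs of measured circles with the same lower-numbered end, 29 were dimmer in both, and their log2 ratios correlated with r = 0.35. Of 901 pairs with the same higher-numbered end, 15 were dimmer in both, with r = 0.267. The levels in such pairs correlated more strongly than the ratios. For the lower-numbered end r was 0.541 for circle probes and 0.375 for partners, and for the higher-numbered end 0.521 and 0.402. The pairs held 1339 circles for the lower-numbered end, 158 of them dimmer, and 1417 for the higher-numbered end, 163 of them dimmer. Of these dimmer circles, 58 of 158 (36.7%) shared a lower-numbered end with another dimmer circle, and 30 of 163 (18.4%) a higher-numbered end. These shares are descriptions with no test. The names carry no strand, so neither end can be called a donor or an acceptor here, and a circle can enter several pairs.

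The 4 loci with the most dimmer circles were picked, and among the 5 loci tied at 3 the larger share of dimmer among measured circles decided. The one with the most was chr4:126545961-126603267, with 20 circles, 15 of them measured and 6 dimmer than their partner. The ratios of the 6 were -0.71 (126547427-126555024), -0.57 (126545961-126559855), -0.55 (126588034-126603267), -0.51 (126579787-126582673), -0.49 (126579787-126592909) and -0.16 (126566759-126577992). The other 9 measured circles had ratios from -0.29 to 1.12. The circle at 126579787-126592909 and that at 126579787-126582673 share their lower-numbered end with 126579787-126588528, which was dimmer on 7 of 9 arrays. The last of the 6 shares its lower-numbered end with 126566759-126567419 (ratio 0.67) and 126566759-126588528 (0.39), both brighter than their partner on all 9 arrays. It also shares that end with 126566759-126592909, which was not measured on all 9 arrays. That circle had a mean ratio of -0.16 and was dimmer on 7 arrays.

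At chr2:121147391-121176749, 3 of 4 measured circles were dimmer. Their ratios were -1.90 (121160149-121176387), -1.66 (121160149-121160572) and -0.99 (121157294-121160572), and the fourth, 121147391-121160572, had 0.09. The first 2 share their lower-numbered end, and the last 3 share their higher-numbered end. At chr5:114000241-114027317 the 3 dimmer circles had ratios of -1.06, -0.46 and -0.08 and the fourth measured one 0.90. At chr1:30865568-30881364 the 3 had -0.72, -0.25 and -0.17, and the other 2 measured circles had 0.61 and 1.94. The other loci with 3 dimmer circles were chr11:57301069-57327793 (3 of 6 measured) and chr15:34043779-34066582 (3 of 7).

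**Figure D4:**
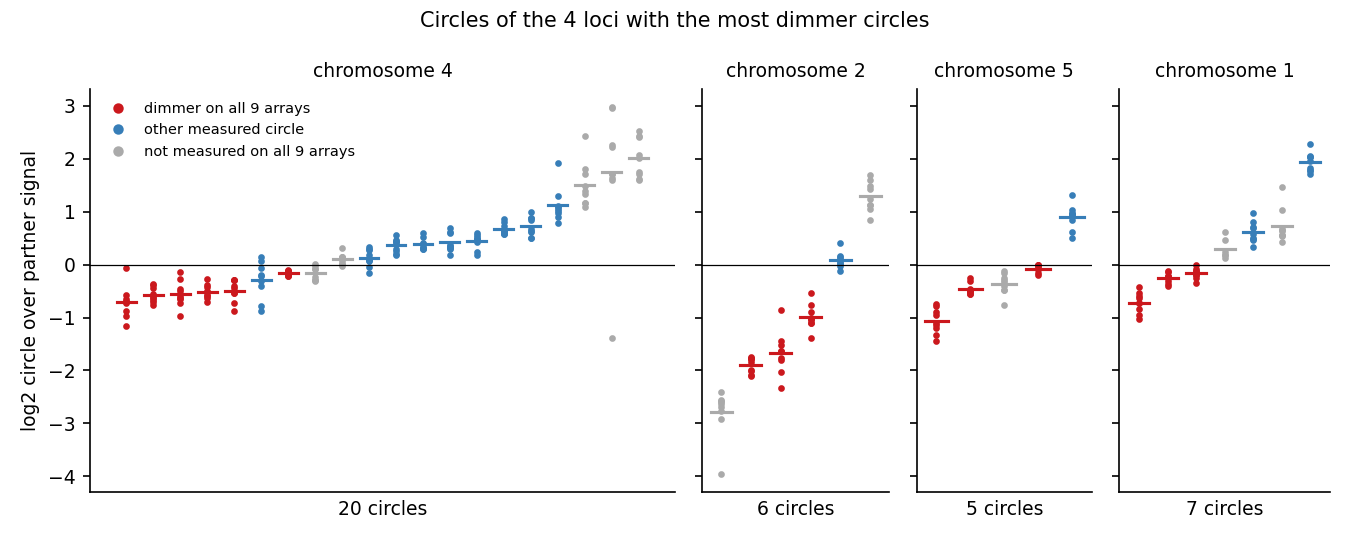
Log2 ratio of circle to partner signal (y axis) on each array (dots) and its mean (bars) for each circle of the 4 loci picked for the most dimmer circles (ties by share), ordered by mean within each locus (x axis). Red circles are the 6, 3, 3 and 3 dimmer on all 9 arrays; blue ones at the same locus reach ratios of 1.12 on chromosome 4 and 1.94 on chromosome 1, and grey ones were not measured on all 9 arrays.

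In the authors' deposited table of log2 values, all 2119 stood at its lowest value of -3.3 on all 9 arrays. In the same authors' deposited table, 3789 circRNAs were at this floor on all 9 arrays, and the 2119 were 55.9% of them. Of those 3789 in the authors' deposited table, 2269 had a circle probe well above background on all 9 arrays. By contrast, 10335 of the 10339 circRNAs with the opposite order were never at the floor in the authors' deposited table. The deposited log2 values therefore hold no difference between groups for the 2119, and the comparisons below rest on the scanner intensities.

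The median circle level over the 2119 was -1.085 ± 0.056 in controls, -1.109 ± 0.065 on the diet and -1.083 ± 0.004 in the metformin group (SD, n = 3 arrays each). The median partner level was -0.066 ± 0.032, -0.129 ± 0.125 and -0.030 ± 0.029 in the same order. High fat diet replicate 2 had the lowest median of both, at -1.178 for circles and -0.271 for partners, and without it the high fat diet minus control difference went from -0.024 to 0.01 for circles and from -0.063 to 0.009 for partners. The difference for circles also changed sign without control replicate 1, to 0.000312. The metformin minus high fat diet difference in the circles, 0.026, was -0.009 without high fat diet replicate 2, and metformin minus control, 0.002, was -0.0289 without control replicate 2. None of these shifts exceeded 0.1 log2 units.

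Group differences were tested with limma over all circRNAs of the array, with Benjamini-Hochberg adjustment. None of the 2119 circle probes passed an adjusted p of 0.05 in any comparison, and the share over all circRNAs tested was 0% too. The smallest adjusted p among the 2119 was 0.187 for high fat diet against control, and 0.65 and 0.538 for metformin against the diet and against control. Their differences were small: the central 95% lay between -0.44 and 0.36, between -0.30 and 0.36 and between -0.40 and 0.37 log2 units. All 2119 were tested, since the rule demands that both probes are well above background on all arrays.

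At an unadjusted p under 0.05 in limma, 135 of the 2119 circle probes (6.37%) differed between high fat diet and control, against 7.25% of the 25777 circRNAs tested. Of these, 43 were higher and 92 lower on the diet, against backgrounds of 2.07% higher and 5.18% lower. Without high fat diet replicate 1 it was 225 probes, and a fit with the array column as a covariate gave 76. The median difference was -0.063 over the 2119 and -0.056 over all tested. Within the slide column that high fat diet replicate 1 shares with the 3 controls it was 0.019 over the 2119, the opposite direction.

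Between metformin and the high fat diet, 65 circle probes (3.07%) had an unadjusted p under 0.05 in limma, against 3.9% of 25828. Of these, 45 were higher with metformin and 20 lower, against backgrounds of 2.32% and 1.58%. Leaving out high fat diet replicate 1 gave 133, and leaving out metformin replicate 3 gave 43. Between metformin and control the count was 112 (5.29%), against 5.07% of 25763, with 52 higher and 60 lower and backgrounds of 1.64% and 3.43%. The median differences over the 2119 were 0.063 and -0.004, beside 0.03 and -0.028 over all tested. Within the slide column shared by 2 diet and 2 metformin arrays, metformin minus diet had a median of 0.107. No metformin array shared a column of the same slide with a control, so group and array position cannot be told apart for metformin against control. Among the 13765 other circRNAs with both probes measured on all 9 arrays, the shares were 6.3% for high fat diet against control, 2.9% for metformin against the diet and 3.62% for metformin against control. In the fit of all 9 arrays the 2119 thus lay near both backgrounds for the first 2 comparisons. For metformin against control they lay near that of all tested and above that of the measured ones, a difference with no test. The 3 comparisons share the arrays of a group and are not independent.

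The partners were tested in the same way, and none passed an adjusted p of 0.05 (background 0%; smallest adjusted p 0.264, 0.931 and 0.502 in limma). For high fat diet against control, 97 partners had an unadjusted p under 0.05 (4.58%; background 7.09%), 27 higher and 70 lower (2.2% and 4.89%). That count was 52 without control replicate 1, 193 without high fat diet replicate 1, 63 without high fat diet replicate 2 and 47 with the array column as a covariate. For metformin against high fat diet the count was 52 (2.45%; background 4.56%), 42 higher and 10 lower (3.39% and 1.18%). It was 138, 24 and 26 without high fat diet replicate 1, high fat diet replicate 2 and metformin replicate 3. For metformin against control it was 84 (3.96%; background 6.18%), 33 higher and 51 lower (3.24% and 2.94%), and 49 without control replicate 1. Among the 13765 other circRNAs with both probes measured, the partner shares were 6.04%, 3.78% and 5.63% in the same order. In this fit the 2119 lay below both backgrounds, a difference with no test. Backgrounds are not given for the fits with other settings or with an array left out, so nothing is said of those. The median partner difference over the 2119 was -0.09 for high fat diet minus control and 0.101 for metformin minus high fat diet; within the shared slide columns it was 0.016 and 0.135, so the first turned its direction.

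Circle and partner mostly differed in the same direction, here as in the other measured circRNAs. Of the 135 circles with an unadjusted p under 0.05 for high fat diet against control, the partner's difference had the same sign in 122 (90.4%). For the other comparisons this held for 57 of 65 (87.7%) and 99 of 112 (88.4%). Across the 2119 the differences of circle and partner correlated with r = 0.578, 0.546 and 0.552; both probes of a pair share the RNA pool and the array. Among the other 13765 measured circRNAs the share with the same sign was 93.9%, 89.7% and 89.8%, and r was 0.66, 0.588 and 0.579, so the agreement is not particular to the 2119.

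**Figure D5:**
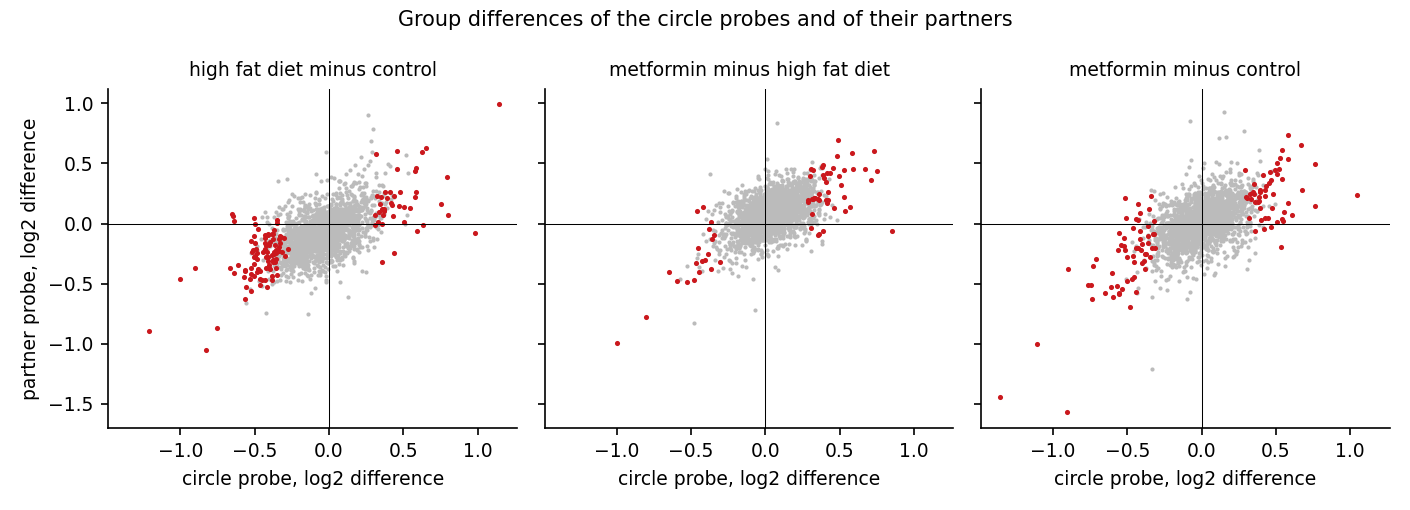
Difference between group means of the circle probe (x axis) and of its partner (y axis), in log2 units, for the 2119 circRNAs in the 3 comparisons. Red points are circles with an unadjusted p under 0.05 (135, 65 and 112), and most lie in the quadrants where both probes differ in the same direction.

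The ratio of circle to partner was fitted as a further measure, in which whatever moves both probes alike drops out. None of the 2119 passed an adjusted p of 0.05 in limma (background 0%). At an unadjusted p under 0.05 there were 130 (6.13%; background 5.81%) for high fat diet against control, 78 higher and 52 lower (2.91% and 2.9%). There were 83 (3.92%; background 4.91%) for metformin against high fat diet, 27 higher and 56 lower (1.71% and 3.19%). There were 126 (5.95%; background 6.69%) for metformin against control, 63 in each direction (2.34% and 4.36%). The rule used the ratio on every array of every group and left out any pair whose order turned in 1 of them, so these counts are descriptions and nothing is read from them about the 2119.

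The circRNA with the smallest p for a lower circle level on the high fat diet was chr19:43579012-43579416, spanning 404 bases. Its circle read 1.1, 1.13 and 1.16 in controls, 0.17, -0.13 and -0.27 on the diet and 0.87, 0.27 and -0.43 with metformin. Its partner read 1.85, 1.77 and 1.79 in controls, 0.92, 0.84 and 0.98 on the diet and 1.58, 1.14 and 1.56 with metformin. Controls lay above all diet arrays in both probes, while the metformin circle values overlapped those of the diet. The difference between diet and control was -1.21 ± 0.26 (SE; limma, adjusted p = 0.281) in the circle and -0.89 ± 0.15 (adjusted p = 0.264) in the partner. High fat diet replicate 1, the one diet array in the controls' column of the slide, differed from the controls' mean by -0.97 and -0.89.

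That locus holds 2 more circles, both with the opposite order of probes on all 9 arrays. The circle chr19:43579012-43582483 shares its lower-numbered end with the dimmer one and had a circle difference of -0.84 ± 0.13 (SE; limma, adjusted p = 0.169) and a partner difference of -0.84 ± 0.16 (adjusted p = 0.31). The circle chr19:43581812-43590352 had differences of -1.0 ± 0.17 (adjusted p = 0.169) and -0.89 ± 0.20 (adjusted p = 0.359). All 6 probes of the locus had lower values on every diet array than on any control array, whichever probe of the pair was the brighter. The locus was listed because earlier results of these same data had called it, so this separation is no independent support. Its probes were also read on the same pools and arrays. Under 3 of the alternatives, with another background correction or variance model, the partner of the dimmer circle passed the test (limma, adjusted p 0.0257 to 0.0338). Its circle did not. Alternatives for the partners were chosen after seeing the data, and 11 of 595 alternatives over 35 named differences passed.

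A second circle on chromosome 19, chr19:55703278-55705776, read -2.06, -2.23 and -2.25 in controls, -2.63, -3.18 and -3.22 on the diet and -2.40, -2.79 and -2.67 with metformin. Its partner read 0.53, 0.06 and 0.42, then -0.50, -0.91 and -0.73, then 0.14, -0.22 and -0.61. The diet and control arrays did not overlap in either probe. The differences were -0.83 ± 0.18 (SE; limma, adjusted p = 0.281) and -1.05 ± 0.21 (adjusted p = 0.327). The partner's passed under 2 of the alternatives (limma, adjusted p 0.0403 and 0.0452), again with another background correction or variance model. These too were chosen after seeing the data. Within the controls' slide column the differences of the 1 diet array were -0.45 in the circle, well below the full difference in size, and -0.84 in the partner. Next by p among lower circles on the diet, mmu_circ_0001432 had a circle difference of -0.57 ± 0.14 (adjusted p = 0.364), and of -0.44 within that column.

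Higher circle values on the diet were led by mmu_circ_0003685. The circle read -2.54, -3.03 and -3.12 in controls, -1.54, -1.71 and -2.02 on the diet and -2.65, -3.08 and -2.52 with metformin. Its partner read -2.40, -2.63 and -2.09, then -1.09, -1.39 and -1.66, then -2.24, -2.72 and -2.15. In both probes every diet array lay above every control and every metformin array. Diet minus control was 1.14 ± 0.20 (SE; limma, adjusted p = 0.187) in the circle and 0.99 ± 0.21 (adjusted p = 0.35) in the partner, and within the controls' slide column 1.36 and 1.28. Metformin minus diet was -1.0 ± 0.20 (adjusted p = 0.65) and -0.99 ± 0.21 (adjusted p = 0.931), and within the shared column of the slide -1.0 and -0.96.

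In some circRNAs the circle values separated between groups while those of the partner overlapped. For chr3:88811064-88827132 the circle read -3.17, -4.05 and -3.55 in controls, -2.87, -2.36 and -2.59 on the diet and -2.47, -2.87 and -2.30 with metformin. The partner stayed between -2.43 and -1.74 over all 9 arrays. Circle differences from control were 0.98 ± 0.23 (SE; limma, adjusted p = 0.323) on the diet and 1.04 ± 0.23 (adjusted p = 0.538) with metformin, and the ratio differed by 1.06 ± 0.28 and 0.81 ± 0.28. Within the controls' slide column the circle difference on the diet was 0.72.

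The circle chr6:112766585-112779625 read -3.05, -3.01 and -2.97 in controls, -3.01, -3.30 and -2.99 on the diet and -1.80, -2.54 and -2.40 with metformin. Its partner lay between -1.05 and -0.62 on all arrays. Every metformin array was above the other 6 in the circle probe. Metformin minus diet was 0.85 ± 0.18 (SE; limma, adjusted p = 0.756) in the circle and 0.92 ± 0.22 in the ratio, and within the shared slide column 0.98 and 1.09.

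With metformin against control, the lowest p for a lower circle was that of chr16:36757208-36762473. Its circle read -0.77, -1.19 and -1.24 in controls, -0.94, -1.88 and -2.06 on the diet and -2.22, -2.13 and -2.93 with metformin. Its partner followed closely at -0.55, -0.91 and -1.05, then -0.90, -1.73 and -1.86, then -2.04, -2.04 and -2.73. Metformin arrays lay below all others in both probes, and high fat diet replicate 1 read like the controls, whose slide column it shared. High fat diet replicates 2 and 3, in the slide column of metformin replicates 1 and 2, read below all controls in both probes. Metformin and array position cannot be told apart here. Metformin minus control was -1.36 ± 0.29 (SE; limma, adjusted p = 0.538) in the circle and -1.44 ± 0.27 (adjusted p = 0.502) in the partner, and the ratio of the pair stayed at a mean of -0.17.

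The largest partner difference of the 2119, chosen after its values were seen, was at chr13:63116386-63119314. The partner read 2.85, 2.45 and 2.10 in controls, 2.03, 1.83 and 1.33 on the diet and 1.67, 0.64 and 0.38 with metformin. The circle read -0.35, -0.81 and -1.42, then -1.03, -1.37 and -1.45, then -1.42, -1.80 and -2.06. Controls lay above all metformin arrays in the partner, where metformin replicate 1 lay within the range of the diet arrays. In the circle probe the control and metformin groups both had a value of -1.42. Metformin minus control was -1.57 ± 0.32 (SE; limma, adjusted p = 0.563) in the partner and -0.90 ± 0.25 (adjusted p = 0.795) in the circle. Within the shared slide columns the partner differed by -0.44 for diet minus control and by -0.42 for metformin minus diet. For metformin against control, group and array position cannot be told apart here.

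Among ratios, 2 differences from control were alike on the diet and with metformin in chr19:37032863-37041342. Its ratio averaged -1.04 ± 0.12 in controls, -0.55 ± 0.07 on the diet and -0.52 ± 0.08 with metformin (SD, n = 3 arrays each), with no overlap between the controls and either group. The differences were 0.49 ± 0.10 and 0.52 ± 0.10 (SE), both against the same controls, and the first was 0.57 within the controls' slide column. In mmu_circ_0001493 the ratio averaged -0.85 ± 0.08 in controls, -0.55 ± 0.07 on the diet and -1.06 ± 0.07 with metformin. Metformin minus diet was -0.51 ± 0.10 (SE), and within the shared slide column -0.50. Both circRNAs were picked by the p of their ratio, and none of these ratio differences passed the adjusted threshold.

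The remaining circles with the smallest p per comparison had differences that likewise missed the adjusted threshold. Circle values higher on the diet than in controls included Fan_16_148_2248 (0.79 ± 0.18, SE; limma, adjusted p = 0.299), which was also among the lower ones with metformin against the diet (-0.65, adjusted p = 0.969). For metformin against the diet, chr15:9078732-9095618 differed by 0.75, chr8:24241910-24246306 by 0.53 and mmu_circ_0005303 by -0.43, each with a limma adjusted p of 0.969; within the shared slide column these were 0.62, 0.40 and -0.41. In chr15:9078732-9095618 the diet arrays lay below both other groups, with a diet minus control difference of -0.65 ± 0.18 (limma, adjusted p = 0.433). For metformin against control, mmu_circ_0006160 differed by 0.68 (limma, adjusted p = 0.538), chr4:128623301-128628016 by -0.74 (adjusted p = 0.625) and Fan_16_148_2420 by -0.52 (adjusted p = 0.672). In chr4:128623301-128628016 the partner differed as well, by -0.63 (adjusted p = 0.587).

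In the ratio of circle to partner, diet against control, chr4:147181199-147202905 differed by 0.73, chr17:66717570-66720785 by -0.71 and Fan_16_148_1461 by -0.37. For metformin against the diet, mmu_circ_0001712 differed by 0.47 and chr14:66832149-66832389 by -0.40. For metformin against control, mmu_circ_0003919 differed by 0.69, mmu-circRNA366-2 by -0.56 and chr3:9565064-9565299 by -0.39. These pairs were picked by the p of the ratio, and the values are descriptions.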

How the data were processed

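Livers were measured on 9 one-colour Agilent arrays, 3 per group, each a pool of 4 mice, and groups were taken from the labels. The processed intensity of each spot was used as deposited; per the file headers it had its background subtracted and was detrended (Agilent Feature Extraction 11.5.1.1, grid build mm9; the submitters' processing notes name 10.7), without scaling between arrays. The authors also deposited log2 values per circRNA. Control and outlier spots were left out, and spots of a probe averaged. The level is log2 intensity minus the array's 75th percentile. Probes that stood well above background on each of the 3 arrays in 1 or more groups were tested with limma 3.58.1 (lmFit, eBayes; R 4.3.3) over the whole array, with Benjamini-Hochberg adjustment and a threshold of 0.05. The script was tested on simulated data.

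Named circRNAs were the 8 widest margins, the 6 brightest circles, those with the smallest p per comparison and direction, those next to the limit, the 4 loci with the most members, and the members at a chromosome 19 locus of earlier results. The members and lists were chosen with earlier results of these data known. Alternatives used normexp (offset 50) on median intensities, because mean intensities were not used here, other filters, variance models and blocks, and leaving out each array.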

Additional observations from a re-analysis of the deposited data

How the results depend on the processing

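The 2119 circRNAs became 3551 with no demand on background and 459 with the circle at or below 0.5 of the partner on all arrays; leaving out each array gave 2145 to 2302. The number of circle probes with an unadjusted p under 0.05 was 76 for high fat diet against control with the array column as a covariate. Leaving out each array gave 92 to 225 for high fat diet against control, 43 to 133 for metformin against high fat diet and 79 to 140 for metformin against control. For partners in high fat diet against control it was 166 with normexp and quantile normalization, 164 with normexp and the 75th percentile, 148 with a robust variance trend and 47 with the column; 1, 2 and 2 partners were called under the first 3 of these, and leaving out each array gave 52 to 193. For partners in metformin against high fat diet it was 104, 101 and 86 under those 3, 31 with no filter on dim probes, 32 with the slide as a block, and 24 to 138 leaving out each array; for metformin against control that range was 49 to 106. Medians of the circle level moved within -0.0548 to 0.0105, -0.00851 to 0.0564 and -0.0289 to 0.0263 when each array was left out. The cause of these changes was not tested. Alternatives for the partners were chosen after seeing the data.

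Samples of the same number were not shown to be paired: their deviations correlated with r of -0.141 to 0.191 over 9 pairs, and 4 of 9 arrays correlated best with their own number. With the replicate number as a block, circle counts were 137, 70 and 116 in the 3 comparisons, and 1 partner was called, that of chr13:63116386-63119314 for metformin against control (-1.57, limma adjusted p = 0.0486). The named differences kept their direction in all of 595 alternatives over 35 results, and 11 of these passed the threshold. These differences were picked from the same arrays that the alternatives reuse, so the kept direction is no independent support. The authors' deposited log2 values gave no test, since all 2119 were at the floor. With 3 pools per group the arrays limit precision.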
